A study of Mus musculus with 3 samples.

Results

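Wnt and R-spondin zonation genes are described here across the nuclei classes and libraries of mouse liver single-nucleus RNA sequencing: the Wnt ligands Wnt2 and Wnt9b, the Wnt enhancer Rspo3, the R-spondin receptors Lgr4 and Lgr5, the ubiquitin ligases Znrf3 and Rnf43, and the target genes Axin2, Glul and Tbx3. They were chosen by name as Wnt ligands, R-spondin and pericentral Wnt targets, and are 10 of the 32285 genes in the deposited matrices. A liver lobule runs from the portal tracts, where blood enters, to a central vein, where it leaves. Wnt ligands and R-spondin 3, which in mouse liver come mainly from endothelial and stellate cells near the central vein, act on neighbouring hepatocytes by stabilising beta-catenin, which switches on pericentral genes. R-spondins bind Lgr receptors and withdraw Znrf3 and Rnf43 from the membrane; these ligases otherwise remove Frizzled receptors, so they restrain Wnt signalling while also being its target genes.

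Frozen liver of 3 mice gave 3 libraries, one per mouse, made with droplet-based 3' chemistry. All were male C57BL/6J mice. The ND mouse received the normal diet, and both STZ-HFHC mice received 0.2 mg of streptozotocin, a toxin of pancreatic beta cells, under the skin at 3 days of age and a high-fat, high-cholesterol Western diet from 4 weeks of age; the labels call their livers fibrotic and the ND liver normal. The codes in the sample titles begin differently in the ND and the STZ-HFHC libraries; what the codes mean is not stated, and with 1 ND library the condition cannot be told apart from any difference between libraries. The age at harvest is not stated in the labels. With 1 ND library the condition has no replicate check, so STZ-HFHC and ND values are given side by side with no p-value; the zone comparisons below use the 3 livers as replicates.

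The libraries held 9424 to 11642 barcodes, of which 28336 nuclei of 30989 passed the limits of 200 to 5000 genes and at most 5% mitochondrial UMIs. A UMI is a counted RNA molecule, and kept nuclei had a median of 4068 UMIs in ND, and of 3015 and 4027 UMIs in STZ-HFHC 1 and 2. Libraries shared 29 to 32 barcodes. Levels are the UMIs of a gene as a share of all UMIs summed over the nuclei of a class in a library, scaled as CPM, and their 95% intervals (exact Poisson; exact Clopper-Pearson for shares) cover counting error only. The summed 10 hepatocyte markers reached 5018 to 16490 CPM in the 8 other named classes, against 15474 to 18286 CPM in hepatocyte-like nuclei, so hepatocyte RNA was present in every class. ND nuclei mostly clustered apart from STZ-HFHC nuclei of the same class. Of endothelial-like nuclei, ND held cluster 5 (1199 of its 1215) and the STZ-HFHC mice cluster 3; of stellate-like nuclei, ND held mainly cluster 9 and the STZ-HFHC mice cluster 14. Cluster 5 had 10 of 12 endothelial markers raised, yet its leading genes were unannotated transcripts with Slc13a2 and the hepatocyte gene Bhmt, and the summed endothelial markers of endothelial-like nuclei were 2156 CPM in ND against 7232 and 6357 CPM in the STZ-HFHC mice. For that reason ligand levels are also given within subclusters and per 1000 UMIs of the markers of the class.

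Wnt2 (chr6:17988940-18030585, minus strand, GRCm38), a secreted ligand of the beta-catenin pathway, had its highest level of the named classes in endothelial-like nuclei in all 3 libraries. There it reached 15.3 CPM in ND (interval 12.6 to 18.4; 112 UMIs), and 60.1 CPM (49.2 to 72.8; 105 UMIs) and 42.3 CPM (32.8 to 53.6; 68 UMIs) in STZ-HFHC 1 and 2. Hepatocyte-like nuclei held 2.48, 2.74 and 1.66 CPM in the same order, and stellate-like nuclei 9.14, 7.71 and 4.03 CPM. Both STZ-HFHC mice thus stood above ND in endothelial-like nuclei, with ratios to ND of 3.93 (2.98 to 5.17) and 2.76 (2.01 to 3.77). Per 1000 endothelial marker UMIs, however, the Wnt2 level was 7.10 in ND and 8.31 and 6.65 in the STZ-HFHC mice, which overlap. Within the ND endothelial-like nuclei, a subcluster of 358 nuclei with more endothelial marker RNA (4698 CPM over all its nuclei) had 31.4 CPM of Wnt2, and the larger subcluster of 788 nuclei (1447 CPM) had 10.0 CPM. The 56 ND nuclei of a further subcluster (5110 CPM) had 56.0 CPM (26.8 to 103; 10 UMIs), an interval that holds both STZ-HFHC levels of the class. In that subcluster STZ-HFHC 1 had 50.5 CPM (6 UMIs) and STZ-HFHC 2 had 13.7 CPM (1 UMI). Of all its nuclei 18.5% had high doublet scores, and Colec11 was its leading gene. After each nucleus was thinned to 1000 UMIs, 2.11% of endothelial-like nuclei in ND had a Wnt2 UMI, compared with 5.69% and 5.23% in the STZ-HFHC mice, while the shares of stellate-like nuclei were 0.909%, 1.34% and 0.555%. Before thinning the endothelial-like shares were 7.82%, 10.7% and 7.86%, at median depths of 5243, 1644 and 1610 UMIs.

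Wnt2 was also present in cluster 4, a cluster of 43, 795 and 1025 nuclei that carried both endothelial and macrophage markers and was left unnamed. There its level was 68.6 CPM in ND, and 32.9 and 29.0 CPM in STZ-HFHC 1 and 2. Of all Wnt2 UMIs, endothelial-like nuclei held 43.1%, 26.2% and 19.1%, while cluster 4 held 4.2%, 34.9% and 40.7%. In both STZ-HFHC libraries cluster 4 therefore held more Wnt2 UMIs than endothelial-like nuclei did. Of its nuclei 19.3% had high doublet scores, compared with the 8% marked in each library, and the part of doublets in this was not tested.

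Wnt9b (chr11:103727364-103749821, minus strand), the other ligand, was rare, with 109 UMIs in 83 nuclei of all 28336. Endothelial-like nuclei held 7 UMIs in ND (0.957 CPM), and 37 (21.2 CPM) and 30 (18.7 CPM) in STZ-HFHC 1 and 2, while stellate-like nuclei held 1, 0 and 0 UMIs, which in the STZ-HFHC mice allows a level of up to 1.54 and 0.756 CPM (3 counts). The endothelial-like ratios to ND were 22.1 (9.74 to 58.8) and 19.5 (8.39 to 52.6). Per 1000 endothelial marker UMIs the level was 0.444 in ND and 2.93 and 2.94 in the STZ-HFHC mice, so the direction was kept and the size was smaller on that scale. When cluster 4 was added to the class, the levels per 1000 marker UMIs were 0.542, 1.30 and 1.26.

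Rspo3 (chr10:29452416-29535867, minus strand), the secreted partner of Lgr receptors, was highest in stellate-like nuclei. Its level there was 129 CPM in ND (121 to 138; 905 UMIs), and 460 CPM (431 to 491; 895 UMIs) and 438 CPM (417 to 459; 1737 UMIs) in STZ-HFHC 1 and 2, which gave ratios to ND of 3.56 (3.24 to 3.91) and 3.39 (3.12 to 3.67). How large this difference was depended on the clusters compared. In cluster 14, the only stellate-like cluster with nuclei of every library in number, the level was 424 CPM in ND (358 to 499; 141 nuclei), and 461 CPM (628 nuclei) and 438 CPM (1306 nuclei) in STZ-HFHC 1 and 2, and these intervals overlap. The ND nuclei of cluster 9 (1045 nuclei) had 114 CPM of Rspo3 and 1845 CPM of stellate markers, compared with 10550 CPM of the markers in ND nuclei of cluster 14. Among subclusters of the class, 2 and 5 (10898 and 11915 CPM of stellate markers) had 701 and 527 CPM of Rspo3 in STZ-HFHC 1. In STZ-HFHC 2 they had 783 and 563 CPM. Subcluster 1 (3759 CPM, 35.2% with high doublet scores) had 242 and 212 CPM in these mice. ND nuclei of subclusters 4 (5911 CPM) and 3 (1155 CPM) had 332 and 67.3 CPM. Subcluster 6 had 201 CPM in ND, and 293 and 166 CPM in STZ-HFHC 1 and 2. Per 1000 stellate marker UMIs, the whole class had 57.0 in ND and 55.1 and 62.3 in the STZ-HFHC mice. After thinning, 18.0% of stellate-like nuclei in ND had an Rspo3 UMI (15.8% to 20.4%), compared with 34.4% and 33.9% in the STZ-HFHC mice, and 0.611%, 1.36% and 0.555% of hepatocyte-like nuclei, which serve as background, did. Before thinning the stellate-like shares were 42.4%, 58.3% and 53.4%.

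In endothelial-like nuclei as a whole Rspo3 stood higher in both STZ-HFHC mice on either scale. Its level was 13 CPM in ND (95 UMIs), and 214 and 155 CPM in STZ-HFHC 1 and 2, and the ratios to ND were 16.4 (13.1 to 20.8) and 11.9 (9.38 to 15.3). Per 1000 endothelial marker UMIs these were 6.02, 29.5 and 24.4, and with cluster 4 added 6.26, 23.6 and 18.9. The ND subcluster richer in endothelial markers, named above, had 25.8 CPM (18.2 to 35.6), which lay under both STZ-HFHC values of the class. A smaller subcluster, the only one with 20 or more nuclei of every library (56, 42 and 37; 5110 CPM of endothelial markers over all its nuclei; 18.5% with high doublet scores), was led by Colec11 with the stellate genes Rgs5 and Lrat among its leading genes. There Rspo3 was 67.2 CPM in ND (34.7 to 117; 12 UMIs) and 160 CPM in STZ-HFHC 1 (96.2 to 250; 19 UMIs), while STZ-HFHC 2 had 0 UMIs, which allows a level of up to 41.0 CPM (3 counts). In that subcluster the STZ-HFHC mice thus did not both stand above ND.

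**Figure D1:**
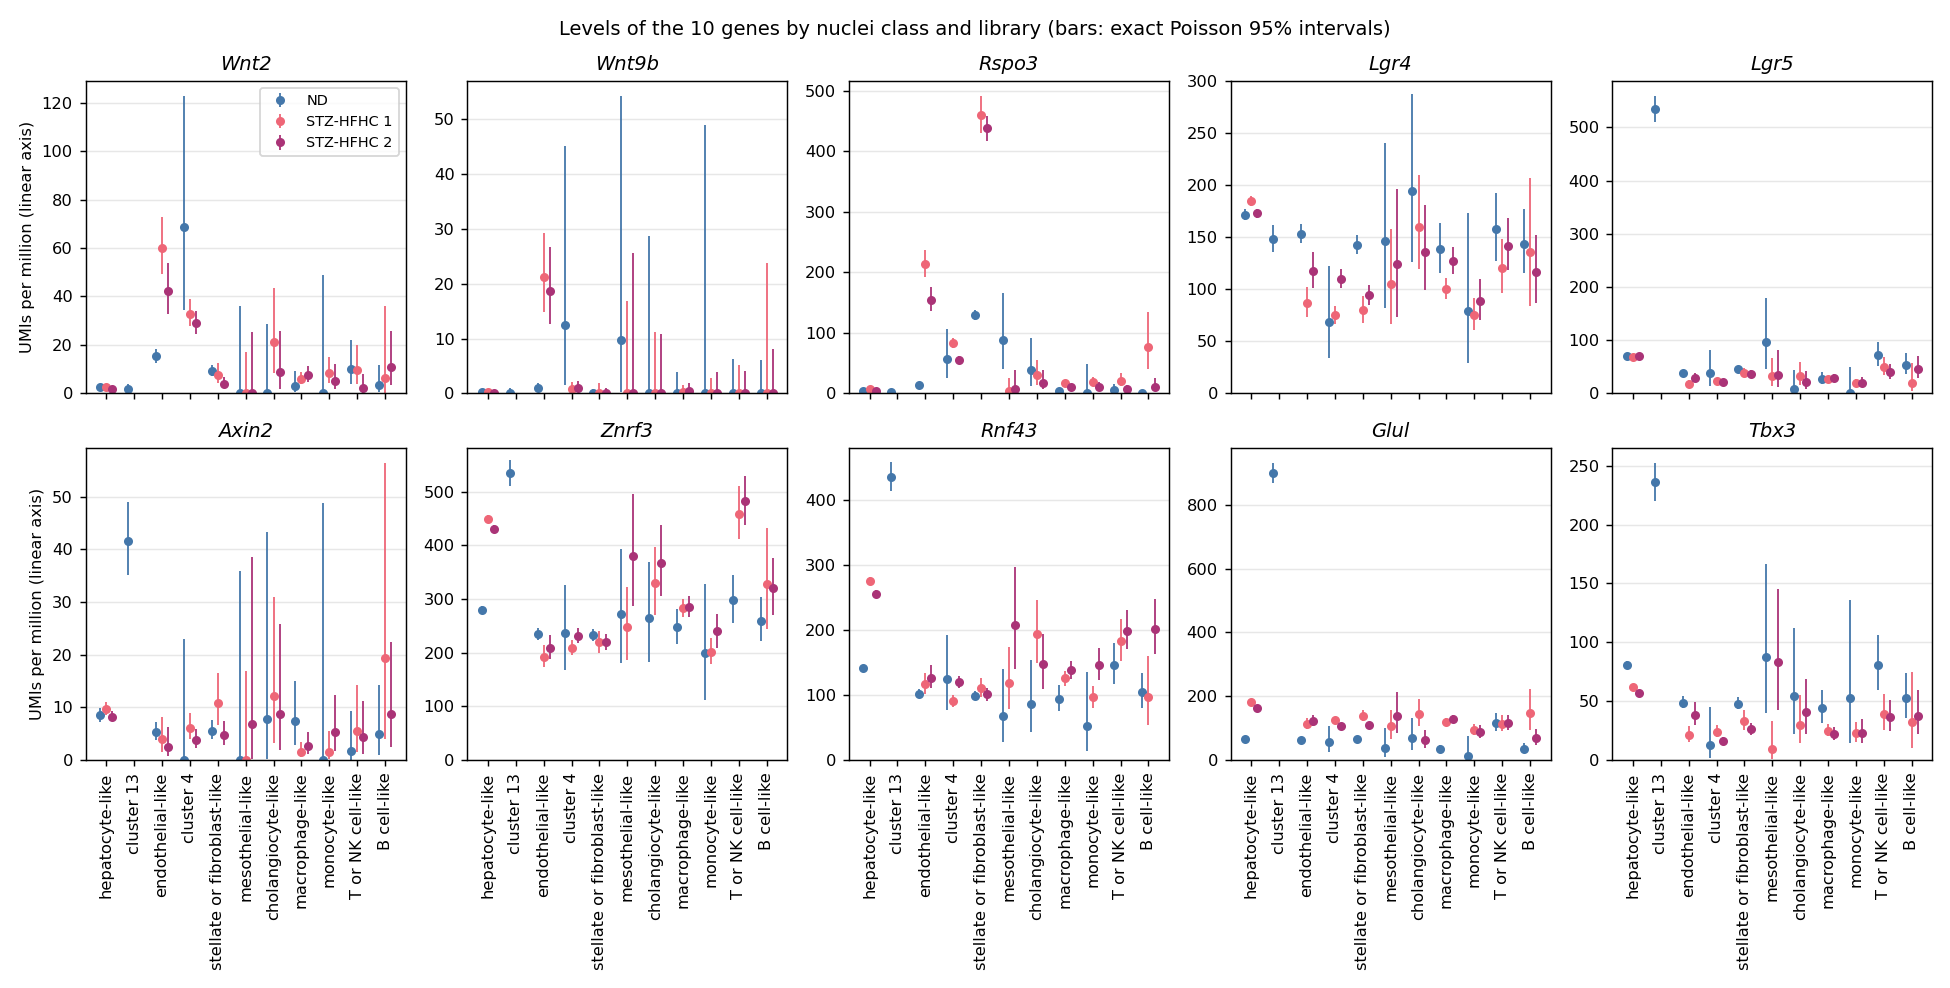
Level of each gene in CPM (linear axis from 0, one panel per gene) in the named nuclei classes of the ND, STZ-HFHC 1 and STZ-HFHC 2 libraries, with exact Poisson 95% intervals. Wnt2 and Wnt9b reach their STZ-HFHC maximum in endothelial-like nuclei and Rspo3 in stellate-like nuclei (129, 460 and 438 CPM), while Lgr4 and Znrf3 are spread over all classes.

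**Figure D2:**
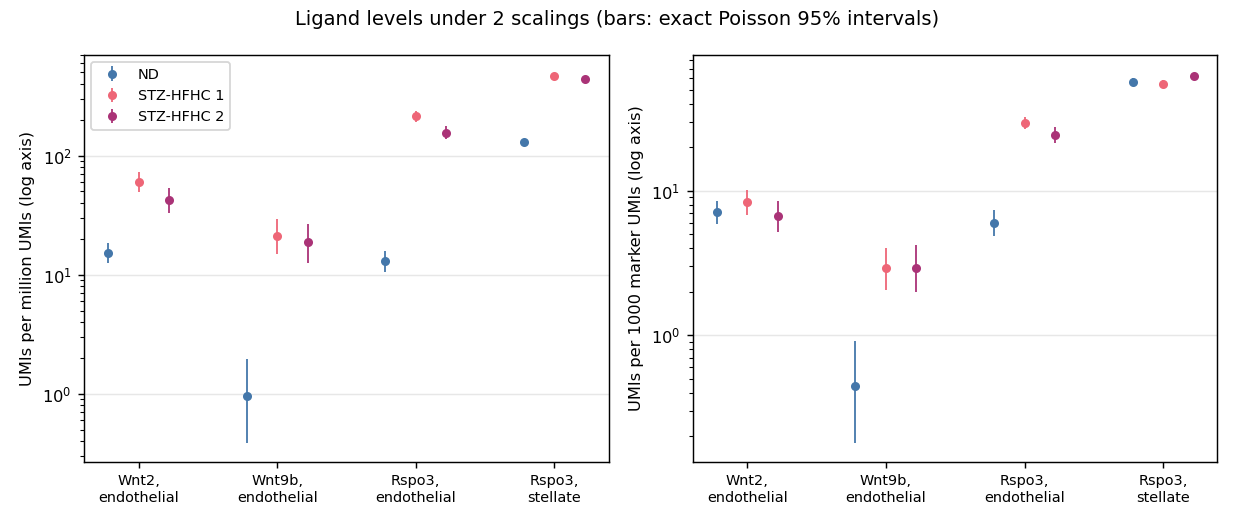
Ligand levels on 2 scales, CPM of all UMIs of the class and UMIs per 1000 UMIs of the markers of the class (log axis), by library. Wnt2 in endothelial-like nuclei (7.10, 8.31 and 6.65 per 1000) and Rspo3 in stellate-like nuclei (57.0, 55.1 and 62.3) are level on the marker scale, whereas Wnt9b and Rspo3 in endothelial-like nuclei remain higher in the STZ-HFHC mice.

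By the rule of size, which asks that each STZ-HFHC mouse differ from ND by a ratio of 2 or more, both one way, and for 50 UMIs or more in all, 3 of 10 members tested were called in endothelial-like nuclei, Wnt2, Wnt9b and Rspo3, all higher. In the same class 13.4% of 11094 genes were called higher and 8.73% lower. With cluster 4 added, Wnt9b and Rspo3 were called higher (background 18.3%) and Tbx3 lower (7.97%), with ratios of 0.486 and 0.445 for Tbx3, while Wnt2, with ratios of 2.48 and 1.96, fell just short. Stellate-like nuclei gave 1 of 9 members, Rspo3, beside 11.2% of 11824 genes higher and 8.39% lower. Per own marker UMIs 2 members were higher in endothelial-like nuclei (Wnt9b and Rspo3; background 1.19%) and 6 lower (69.4%), and in stellate-like nuclei 0 were higher (0.922%) and 6 lower (76.8%). Another scaling changed the balance of all genes. With TMM size factors 1126 genes were higher and 1465 lower in endothelial-like nuclei, against 1485 and 969 by CPM, and the median log2 ratios of all genes moved from 0.06 and 0.12 to -0.19 and -0.15; in hepatocyte-like nuclei 1209 were higher and 914 lower, against 1433 and 702. The number of members called did not change with it.

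In the STZ-HFHC mice many of the endothelial Rspo3 and Wnt9b UMIs lay in one small subcluster, led by Adamtsl1, Myrip, Sulf1, Thsd7a and Vwf, with Eln and Edn1. Of endothelial-like nuclei this subcluster made up 9 in ND (0.741%; interval 0.339% to 1.4%), and 57 (7.55%; 5.77% to 9.67%) and 111 (14.8%) in STZ-HFHC 1 and 2. Rspo3 reached 1123 and 508 CPM there in STZ-HFHC 1 and 2, and Wnt9b 136 CPM (25 UMIs) and 73.5 CPM (23 UMIs). It held 206 of 373 endothelial Rspo3 UMIs in STZ-HFHC 1 and 159 in STZ-HFHC 2, where the largest subcluster held 72. Of the Wnt9b UMIs it held 25 of 37 and 23 of 30. The 9 ND nuclei held 15 of 95 Rspo3 UMIs and 0 of 7 Wnt9b UMIs, too few nuclei for a level. Vwf is a known gene of large-vessel endothelium; the position of these nuclei in the lobule was not measured. Other endothelial-like nuclei of the STZ-HFHC mice carried Rspo3 as well, with 137 and 81.8 CPM in the largest of their subclusters, and there Wnt9b had 4 and 3 UMIs. Wnt2 was less unevenly spread, with 109 and 31.9 CPM in the small subcluster and 58.4 and 37.5 CPM in the largest.

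**Figure D3:**
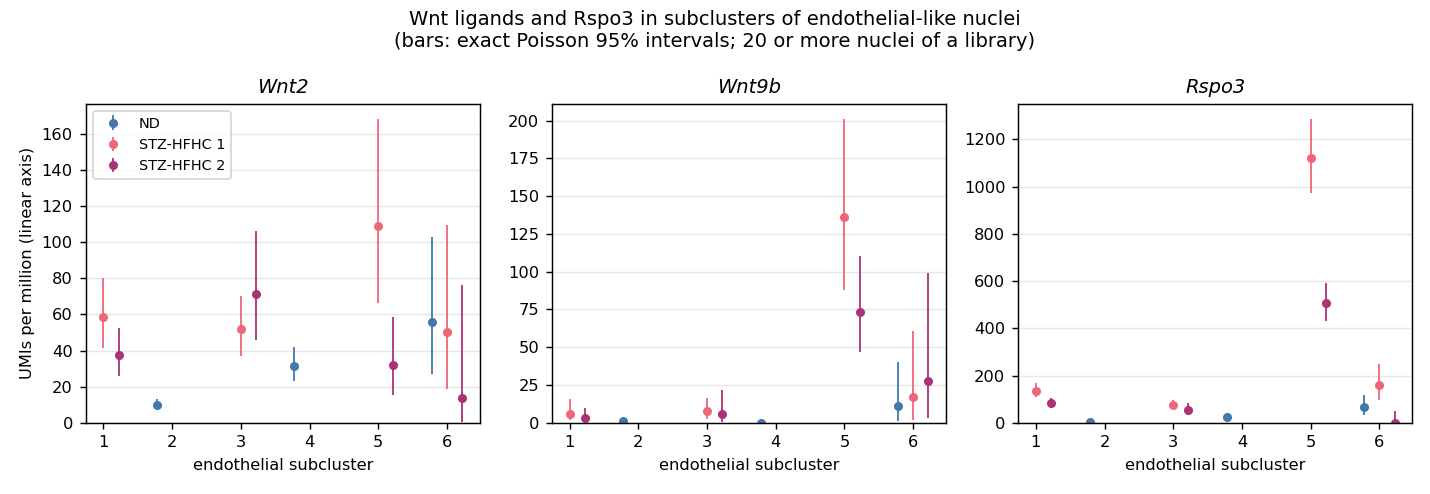
Levels of Wnt2, Wnt9b and Rspo3 in CPM in the subclusters of endothelial-like nuclei, by library, with exact Poisson 95% intervals. Subcluster 5 holds the highest Rspo3 (1123 and 508 CPM) and Wnt9b (136 and 73.5 CPM) values of the STZ-HFHC mice.

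Whether the ligands followed a zone score of endothelial nuclei was tested within each liver. Position itself was not measured, and the part of the small Vwf subcluster in the differences was not tested. Endothelial-like nuclei were ranked by a score of Kit, Cdh13, Thbd and Lhx6, which mark the pericentral side, against Efnb2, Dll4, Ltbp4, Msr1, Ntn4 and Adgrg6, which mark the periportal side, the nuclei of each library were split into 3 equal parts, and the UMI sums of the highest (pericentral) and lowest (periportal) part were compared. Rspo3 measured 28.7 CPM in the pericentral and 4.37 CPM in the periportal part in ND. The same parts had 507 and 46.5 CPM in STZ-HFHC 1 and, in the other STZ-HFHC mouse, 354 and 40.3 CPM. The ratio was thus 6.56 (3.53 to 13.3), 10.9 (7.3 to 16.9) and 8.77 (5.64 to 14.3), higher in 3 of 3 livers, and the mean log2 difference was 3.20 (SE 0.17, adjusted p = 2.82e-42 in edgeR's quasi-likelihood test with library as a block). With cluster 4 added the Rspo3 difference was smaller, 1.78 (SE 0.11, edgeR adjusted p = 8.12e-10), and the ratios were 4.11, 3.69 and 2.96, so that ND no longer had the lowest. Wnt2 measured 19.9 and 12.4 CPM in ND, 106 and 32.2 CPM in STZ-HFHC 1 and, in the other STZ-HFHC mouse, 56.7 and 25.7 CPM. Its log2 difference was 1.15 (SE 0.22, edgeR adjusted p = 2.75e-04), higher in 3 of 3 livers. This Wnt2 call was not stable: the adjusted p was 0.655 in edgeR without STZ-HFHC 1 and 1.0 in DESeq2. Wnt9b lay under the filter on low counts, with 5, 31 and 26 UMIs in the pericentral and 1, 2 and 3 in the periportal part; without the filter its log2 difference was 3.18 (SE 0.47, edgeR adjusted p = 1.83e-08), and in DESeq2 it did not pass (3.21, adjusted p = 0.210). Of 8 members tested these 2 were higher, and 0.52% of 7504 genes were higher and 0.253% lower. The other 6, Lgr4, Lgr5, Znrf3, Rnf43, Glul and Tbx3, did not pass, with log2 differences from -0.56 (Lgr5) to 0.03 (Lgr4). The Lgr5 value rested on ND, with single-library ratios of 0.535 in ND and 0.896 and 1.44 in the STZ-HFHC mice, and it was 0.30 without ND. In ND the whole middle part of 405 nuclei lay within 0.05 of a boundary of the score. So did 222 of the 250 middle nuclei of STZ-HFHC 2, and 27 of the 252 of STZ-HFHC 1.

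The receptors were not restricted to hepatocyte-like nuclei. Lgr4 (chr2:109917647-110014257, plus strand), one of the R-spondin receptors, measured 172, 185 and 173 CPM in hepatocyte-like nuclei of ND, STZ-HFHC 1 and STZ-HFHC 2, and 79.5 to 195 CPM over the 8 other named classes in ND and 75.3 to 160 and 88.7 to 142 CPM in the STZ-HFHC mice. Lgr5 (chr10:115450311-115587780, minus strand), a related receptor that is itself a Wnt target, had 70.6, 68.1 and 71.0 CPM in hepatocyte-like nuclei and medians of 42.2, 29.3 and 31.9 CPM over the other classes. The ligase Znrf3 (chr11:5276324-5444847, minus strand) had 279, 450 and 431 CPM in hepatocyte-like nuclei and as much in T or NK-like nuclei, with 298, 459 and 482 CPM. Rnf43 (chr11:87662722-87735539, plus strand), the ligase paired with Znrf3 in function, had 141, 275 and 256 CPM in hepatocyte-like nuclei. How much of the signal outside hepatocyte-like nuclei came from free hepatocyte RNA was not tested.

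Among the targets, Glul (chr1:153899944-153909723, plus strand) encodes glutamine synthetase, the pericentral ammonia-fixing enzyme. Axin2 (chr11:108920349-108950783, plus strand) is a feedback scaffold that helps to degrade beta-catenin, and Tbx3 (chr5:119670669-119684724, plus strand) is a transcriptional repressor. The 250 bases before the RefSeq transcript start (GRCm38.p6) of Glul, at chr1:153899679-153899928, and Axin2, at chr11:108920099-108920348, both read on the plus strand, are shown because these 2 targets changed together with zone below.
Glul: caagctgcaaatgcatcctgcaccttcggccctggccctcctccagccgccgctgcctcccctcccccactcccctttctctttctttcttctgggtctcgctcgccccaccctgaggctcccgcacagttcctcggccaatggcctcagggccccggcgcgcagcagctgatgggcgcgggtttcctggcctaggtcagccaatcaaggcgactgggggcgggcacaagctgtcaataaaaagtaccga
Axin2: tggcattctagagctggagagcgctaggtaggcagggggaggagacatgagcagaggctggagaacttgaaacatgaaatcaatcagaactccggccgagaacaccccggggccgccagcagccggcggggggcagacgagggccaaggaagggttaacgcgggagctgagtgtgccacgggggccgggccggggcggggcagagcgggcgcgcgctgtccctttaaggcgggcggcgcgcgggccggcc
Neither window held CTTTGA or its reverse complement TCAAAG, the core letters bound by TCF/LEF factors, nor did any of the 7 windows of the 6 members that matched the RefSeq table, while 13.8% of all 32851 windows of that length did. The sites of these factors can lie outside such a window.

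Hepatocyte zone was measured in the same way, by a score of 10 pericentral genes, among them Cyp2e1, Cyp1a2 and Oat, against 11 periportal genes, among them Cyp2f2, Hal and Pck1; no member was in the score. All 3 livers showed the pericentral pattern. Glul had 158 CPM in the pericentral part, 22.8 CPM in the middle and 15.6 CPM in the periportal part of ND hepatocyte-like nuclei. The same parts had 475, 44.2 and 27.2 CPM in STZ-HFHC 1 and, in the other STZ-HFHC mouse, 444, 40.3 and 20.7 CPM. The pericentral part of each liver was therefore far above the other parts, which lay near each other. Lgr5 had 170, 30.7 and 12.1 CPM in ND, 190, 11.2 and 4.60 CPM in STZ-HFHC 1 and, in the other STZ-HFHC mouse, 194, 16 and 7.96 CPM. Axin2 had 15.4, 8.02 and 2.15 CPM in ND, 21.1, 6.02 and 2.35 CPM in STZ-HFHC 1 and, in the other STZ-HFHC mouse, 19.3, 4.72 and 1.43 CPM. Tbx3 had 144, 74.6 and 24.2 CPM in ND, 133, 43.6 and 11.7 CPM in STZ-HFHC 1 and, in the other STZ-HFHC mouse, 139, 28.8 and 7.74 CPM. For these genes the levels fell from part to part in every liver. Without cluster 13 of ND, described below, the pericentral parts of the livers were closer to each other for Lgr5, Axin2 and Tbx3 than for Glul. With it the pericentral part of ND had 492 CPM of Glul, 335 CPM of Lgr5, 27.0 CPM of Axin2 and 193 CPM of Tbx3, so the livers were then closest for Glul.

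The ligases had shallower gradients than those targets. Rnf43 had 218, 119 and 85.6 CPM in ND, 507, 211 and 114 CPM in STZ-HFHC 1 and, in the other STZ-HFHC mouse, 490, 191 and 103 CPM. Znrf3 had 343, 257 and 239 CPM in ND, 670, 388 and 299 CPM in STZ-HFHC 1 and, in the other STZ-HFHC mouse, 661, 375 and 273 CPM. Lgr4 ran the other way by a little, with 159 CPM in the pericentral and 183 CPM in the periportal part of ND, 179 and 193 CPM in STZ-HFHC 1 and, in the other STZ-HFHC mouse, 162 and 188 CPM.

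In the fit across all genes, 6 of 9 members tested rose in the pericentral part, and 4.1% of 13718 genes were higher and 3.71% lower; with cluster 13 of ND the same 6 of 9 rose, beside 5.37% and 4.59%. The log2 differences were 4.50 for Lgr5 (SE 0.24, edgeR adjusted p = 1.71e-04), 3.96 for Glul (SE 0.19, edgeR adjusted p = 1.1e-04), 3.34 for Tbx3 (SE 0.26, edgeR adjusted p = 7.22e-04) and 3.23 for Axin2 (SE 0.19, edgeR adjusted p = 2.17e-04). Rnf43 rose by 1.88 (SE 0.17, edgeR adjusted p = 1.21e-03) and Znrf3 by 0.94 (SE 0.14, edgeR adjusted p = 9.61e-03). Lgr4 did not pass, with -0.22 (SE 0.07, edgeR adjusted p = 0.119), nor did Rspo3 at 0.03 or Wnt2 at 0.16, and Wnt9b was too low to test. The Znrf3 call was lost without STZ-HFHC 1 (edgeR adjusted p = 0.0612). Without library as a block, 3 members passed, Lgr5, Glul and Axin2. The edgeR test, here and in endothelial-like nuclei, combines the spread of a gene between the 3 livers with that of all genes. These p-values therefore do not measure the spread of a single gene between livers alone.

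How the hepatocyte-like nuclei of ND and STZ-HFHC compared depended on 1 cluster. In the STZ-HFHC libraries the cluster with the highest Glul was cluster 21, with Slc1a2, Slc22a3, Slc13a3 and Glul among its leading genes and with 283 nuclei (7.6% of hepatocyte-like nuclei) and 455 (8.84%) in STZ-HFHC 1 and 2. In ND the cluster with the highest Glul was cluster 13, with 770 of its 772 nuclei from ND, led by Sgcz, Lgr5 and Kif26b. It had 2 of 10 hepatocyte markers raised and so was not named hepatocyte-like. Its summed hepatocyte markers were 12242 CPM, while those of cluster 21, named hepatocyte-like, were 11204 and 11109 CPM in STZ-HFHC 1 and 2. The summed pericentral score genes were 6160 CPM in cluster 13, and 7654 and 7562 CPM in cluster 21. Cluster 13 made up 9.07% of the ND nuclei kept, and cluster 21 made up 3.17% and 4.17% in STZ-HFHC 1 and 2. Of the ND hepatocyte-like and cluster 13 nuclei together, cluster 13 was 14.2%. The members were left out of the clustering, but clusters were formed in nuclei whose libraries separate, so cluster sizes are not compared.

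Cluster 13 of ND and cluster 21 of the STZ-HFHC mice both held high levels of the target genes. Glul was 900, 1289 and 1403 CPM, and after thinning 46.9% (43.4% to 50.5%), 55.8% (49.8% to 61.7%) and 60.7% (56.0% to 65.2%) of nuclei had a Glul UMI. Lgr5 was 535, 460 and 528 CPM, Axin2 was 41.7, 40.4 and 34.8 CPM and Tbx3 was 236, 205 and 212 CPM. These 3 genes were thus at similar levels in the 3 libraries. Rnf43 was 436, 788 and 766 CPM and Znrf3 was 535, 991 and 987 CPM. Both ligases were higher in both STZ-HFHC mice, also as thinned shares: Rnf43 had a UMI in 34.9% (31.6% to 38.4%), 49.8% (43.8% to 55.8%) and 52.3% (47.6% to 57.0%) of nuclei and Znrf3 in 42.1%, 56.5% and 57.1%. Lgr4 was 149, 191 and 163 CPM.

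Without cluster 13, Glul was the 1 of 9 members called by the rule of size in hepatocyte-like nuclei, where 9.59% of 14945 genes were called higher and 4.7% lower. Its level was 65.1, 181 and 164 CPM, with ratios to ND of 2.78 and 2.52. With cluster 13 counted as hepatocyte-like the ratios were 1.00 and 0.912 and no member was called, beside 9.17% of genes higher and 4.53% lower. On that count Lgr5 stood lower in both STZ-HFHC mice, with ratios to ND of 0.506 and 0.528 (0.965 and 1.01 without cluster 13), and Tbx3 with 0.606 and 0.557 (0.768 and 0.705). Axin2 had ratios of 0.743 and 0.632 with cluster 13 and 1.15 and 0.974 without it. Rnf43 and Znrf3 stood above ND either way, with ratios of 1.51 and 1.41 for Rnf43 and 1.43 and 1.37 for Znrf3 with cluster 13, and 1.95 and 1.82, and 1.61 and 1.54, without it. Summed over all kept nuclei of a library, whatever their class, Glul was 133, 161 and 149 CPM, Lgr5 98.0, 53.6 and 58.5 CPM, and Tbx3 81.2, 50.2 and 47.2 CPM. Over a whole library, fewer nuclei of a type and less RNA per nucleus cannot be told apart.

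**Figure D4:**
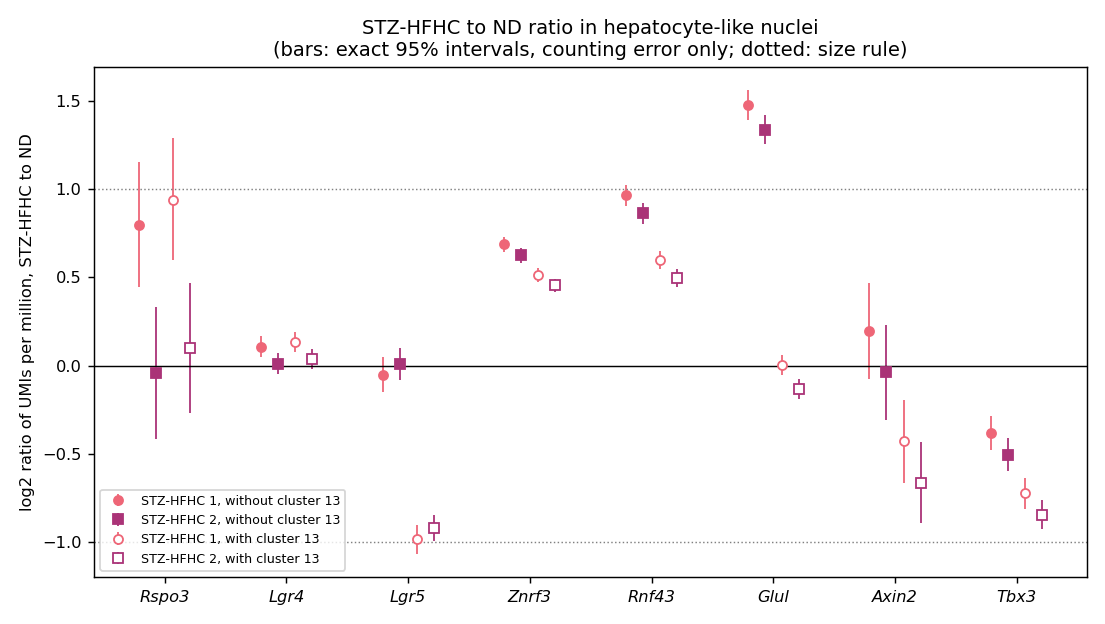
Log2 ratio of each STZ-HFHC mouse to ND in hepatocyte-like nuclei for the receptors, ligases and targets, with and without cluster 13 and with 95% counting intervals. The Glul ratios to ND are 2.78 and 2.52 without cluster 13 and 1.00 and 0.912 with it, while Rnf43 and Znrf3 stay above ND on both counts.

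The gradient between the ends of the lobule differed between ND and STZ-HFHC for several members, and for some this also depended on cluster 13. The ratio of pericentral to periportal part for Lgr5 was 14 (11.3 to 17.6) in ND, and 41.2 (30.8 to 56.3) and 24.4 (20.1 to 29.96) in STZ-HFHC 1 and 2. With cluster 13 it was 23.3 (19.5 to 28.1) in ND. For Glul it was 10.1, 17.4 and 21.4, and 27.1 (23.1 to 32.0) in ND with cluster 13. That ND value was above both STZ-HFHC mice, but its interval overlapped that of STZ-HFHC 2 (19.0 to 24.3). For Tbx3 it was 5.95, 11.3 and 18.0, and 7.09 in ND with cluster 13. For Rnf43 it was 2.55, 4.45 and 4.78, and 3.71 in ND with cluster 13, and for Znrf3 1.44, 2.24 and 2.42, and 1.81. Tbx3, Rnf43 and Znrf3 thus had their lowest ratio in ND with and without cluster 13, with counting intervals apart from those of both STZ-HFHC mice, while for Lgr5 with cluster 13 the ND interval overlapped that of STZ-HFHC 2 and lay under that of STZ-HFHC 1. Axin2 had no such order, with 7.16, 8.99 and 13.5, and 11.2 in ND with cluster 13. The pericentral genes of the score itself also fell by a smaller ratio in ND. Their sum was 3709 CPM in the pericentral and 619 CPM in the periportal part of ND (5058 and 698 CPM with cluster 13). It was 4060 and 491 CPM in STZ-HFHC 1, and 3854 and 371 CPM in STZ-HFHC 2. The part of this in the ratios of the members was not tested. The difference in gradient between the conditions was not tested, with 1 ND liver.

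Of the 79 other genes of a wider Wnt list (ligands, R-spondins, secretion factors, receptors, inhibitors, the beta-catenin complex, nuclear partners and further targets), 43 were tested in the hepatocyte zone comparison, and 9 rose and 3 fell in the pericentral part, beside 4.1% and 3.71% of all genes. Their median log2 difference was 0.11, and that of all genes was 0.00. Of 8 further pericentral or Wnt target genes tested, 6 rose, with a median of 3.01: the sodium-dicarboxylate transporter Slc13a3 (4.36), Lhpp (3.83), the ammonia transporter Rhbg (3.48), the Wnt feedback inhibitor Nkd1 (3.25), the secreted Lect2 (2.76) and the sterol hydroxylase Cyp27a1 (0.87). The others that rose were Notum (1.97), a secreted enzyme that inactivates Wnts, the Wnt co-receptor Lrp5 (0.95) and the transcription factor Tcf7 (1.89). Those that fell were Tcf7l1 (-1.59) and Tcf7l2 (-0.40), transcription factors of the pathway, and the receptor Ror1 (-0.55). In endothelial-like nuclei 26 of the list were tested and 0 passed in edgeR, where 4 had an unadjusted p under 0.05 (Tcf7l1, Apc, Nkd1 and Lhpp, named after their values were seen).

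Between conditions, the rule of size called 6 of 45 genes of the wider list in hepatocyte-like nuclei, all higher, beside 9.59% of all genes higher and 4.7% lower: Ccnd1, a cyclin of the cell cycle (log2 ratios to ND of 4.01 and 2.26), Myc (2.99 and 1.77), Slc13a3 (2.65 and 2.81), Nkd1 (1.80 and 1.76), Wnt4 (1.68 and 1.03) and the co-repressor Tle3 (1.49 and 1.39). These ratios leave out cluster 13 of ND, and with that cluster the rule called 4 genes of the list higher and 1 lower. The 6 calls therefore did not all hold when cluster 13 was counted. Of the 6, Slc13a3 and Nkd1 also rose in the pericentral part, as given above. In endothelial-like nuclei 7 of 31 were called higher (13.4% of all genes), among them Wls, which carries Wnts to the cell surface, at 25.3, 116 and 98.3 CPM, and Nkd1 at 7.79, 26.9 and 21.8 CPM. The 2 called lower (8.73% of all genes) were Ror1, at 360, 120 and 152 CPM, and Cyp27a1. In stellate-like nuclei 9 of 38 were called, all higher (11.2% of all genes, and 8.39% lower), among them Wls at 45.1, 187 and 161 CPM and the secreted inhibitors Frzb, at 8.14, 38.1 and 37.6 CPM, and Dkk3, at 5.14, 35.5 and 24.95 CPM. The endothelial and stellate marker sums moved in the same direction across these libraries, as given above for the ligands, and their part in these differences was not tested.

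Glul was also called in macrophage-like nuclei. There it measured 33.5 CPM in ND (22.9 to 47.3; 237 nuclei), and 120 CPM (109 to 132; 1361 nuclei) and 129 CPM (116 to 142; 926 nuclei) in STZ-HFHC 1 and 2, so both STZ-HFHC mice stood above ND, with ratios of 3.58 (2.50 to 5.30) and 3.84 (2.67 to 5.69). After thinning, 5% of ND nuclei (2.31% to 9.28%) and 13.2% (11.3% to 15.2%) and 10.7% (8.71% to 13.02%) of STZ-HFHC nuclei had a Glul UMI. Higher Glul was not particular to this class. Over the 8 named classes other than hepatocyte-like, the median Glul level was 51.1 CPM in ND, and 117 and 113 CPM in STZ-HFHC 1 and 2. The macrophage-like levels of the STZ-HFHC mice were close to these medians. The summed hepatocyte markers of macrophage-like nuclei were 15975 CPM in ND and 8865 and 14086 CPM in the STZ-HFHC mice. In hepatocyte-like nuclei without cluster 13, Glul was itself 65.1, 181 and 164 CPM. The part of hepatocyte RNA in the macrophage-like Glul level was not tested. ND held cluster 10 of this class and the STZ-HFHC mice cluster 17, and per own marker UMIs the ratios were 1.35 and 2.22. The rule of size called 2 of 7 members in macrophage-like nuclei, Glul and Rspo3, the latter on 3, 64 and 30 UMIs, beside 14.3% of genes higher and 5.32% lower. In monocyte-like nuclei it called Glul higher and Tbx3 lower, on 1 and 4 UMIs of 39 ND nuclei (background 11.7% higher and 7.72% lower), and in T or NK-like nuclei Tbx3 lower, at 80.4, 38.7 and 36.3 CPM (11% higher and 4.27% lower).

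The genes whose levels over 36 sums of class and library were most like each member were, for Wnt2, Myo7a (Pearson r = 0.847), Emcn (0.846) and She (0.842), and for Rspo3, Abcc9 (0.898), Pcdh9 (0.882) and Rerg (0.878). For Wnt9b they were Hoxb6 (0.74), Ap1b1 (0.709) and Gata4 (0.705). Among the targets, Glul went with Slc1a2 (0.844) and Airn (0.819), Lgr5 with Metap1d (0.812) and Tbx3 with Abcb4 (0.836). Axin2 went with Zfyve21 (0.804), Lgr4 with Garem1 (0.876), Znrf3 with Tox (0.816) and Rnf43 with Esrrg (0.857). These sums share libraries and depth, and the values describe them only.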

How the data were processed

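Nuclei of frozen liver from 3 mice (1 ND, 2 STZ-HFHC) were profiled by droplet-based single-nucleus RNA sequencing. The authors deposited filtered UMI counts per gene and barcode, not normalized; the submitters' processing notes name Cell Ranger 7.0.1 and mm10. Groups came from the sample titles. Member genes, gene lists and comparisons were chosen with earlier results of these data known.

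Nuclei with 200 to 5000 genes and at most 5% mitochondrial UMIs were kept, as in the study's methods; the upper limit removed 612 to 914 barcodes per library, and UMIs of kept nuclei were 42715797 to 55632923. Scanpy 1.11.5 (Python 3.11.15) scaled each nucleus to 10000 UMIs, took 2000 variable genes without the Wnt list, 30 principal components and 15 neighbours, and clustered by Leiden at resolution 1, with no batch correction. A cluster was called by a class ("-like") where at least 3 markers, and a sizeable share of that list, were raised at least 2-fold; in a further pass, clusters with too few raised markers were called hepatocyte-like where at least 3 hepatocyte markers stood above those of the non-hepatocyte clusters of the same library. This rule was adjusted after the clusters were seen. Clusters 4, 13, 16 and 19 stayed unnamed. Scrublet's own threshold marked 1, 0 and 0 nuclei and had not worked; the highest 8% of scores per library were marked and kept, and leaving them out was an alternative.

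UMIs were summed per class and library with at least 20 nuclei. Zone tests used raw sums of the nuclei in the highest and lowest of 3 equal parts of a score in edgeR 4.0.16 (R 4.3.3; TMM, filterByExpr, library as a block, quasi-likelihood, Benjamini-Hochberg, threshold 0.05), two-sided. Both parts come from the same mouse, so the block is set by the design; deviations of the parts correlated at 0.707 to 0.879 across 12625 genes in hepatocyte-like and 0.503 to 0.922 across 8054 genes in endothelial-like nuclei. STZ-HFHC and ND were compared by a rule of size, a log2 ratio of at least 1 in both mice after adding 0.5 to each count, and at least 50 UMIs. Exact Poisson, binomial and conditional 95% intervals were computed. Thinning drew 1000 UMIs per nucleus and left out shallower nuclei. The scripts were tested on simulated data. Named genes were all members, up to 5 genes of the wider list per direction and comparison, and up to 3 genes most like each member. Gene positions are from GENCODE M21, in which 32235 IDs were found. Alternatives were another normalization, DESeq2 1.42.0, filters, scores, resolutions, leaving out each library, and, added after seeing the data, joining clusters 13 and 4 to their classes and scaling by marker UMIs.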

Additional observations from a re-analysis of the deposited data

Results flagged for a closer look

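In 7 comparisons the groups had log2 ratios of opposite sign in every library, whatever their size. These differences were not tested, and with 1 ND library no spread stands behind them. Wnt2 was higher in the STZ-HFHC mice in endothelial-like nuclei (mean log2 ratio to ND 1.72) and lower in stellate-like nuclei (-0.68), a difference of 2.4; the endothelial marker sums were also higher in the STZ-HFHC mice (2156 CPM in ND against 7232 and 6357 CPM), and per 1000 of those marker UMIs Wnt2 was 7.10, 8.31 and 6.65. Lgr4 stood at 0.06 in hepatocyte-like, -0.60 in endothelial-like and -0.72 in stellate-like nuclei, differences of 0.655 and 0.778. Its hepatocyte-like levels were 172, 185 and 173 CPM in ND, STZ-HFHC 1 and STZ-HFHC 2, so STZ-HFHC 2 was almost level with ND. Znrf3 stood at 0.66 in hepatocyte-like, -0.22 in endothelial-like and -0.09 in stellate-like nuclei, differences of 0.881 and 0.743. Within stellate-like cluster 14, Znrf3 was instead higher in both STZ-HFHC mice. It was 118 CPM in ND (84.2 to 160), and 220 CPM (199 to 242) and 219 CPM (205 to 234) in STZ-HFHC 1 and 2. The ND nuclei of cluster 9 had 239 CPM. For Lgr4 and Znrf3, hepatocyte marker RNA was present in every class, and its part was not tested. The log2 ratio of pericentral to periportal hepatocyte part for Wnt2 was 0.45 in the STZ-HFHC mice and -0.47 in ND, a difference of 0.914 that rests on 12 to 28 UMIs per part. That of Rnf43 between endothelial parts was 0.13 and -0.13, a difference of 0.262; with cluster 4 the log2 ratios were -0.11 in ND and 0.18 and -0.07 in the STZ-HFHC mice, which no longer all lie opposite to ND.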

How the results depend on the processing

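In hepatocyte-like nuclei the 6 members higher in the pericentral part were 6 under every alternative except without STZ-HFHC 1 (5) and with no replicate block (3); leaving out 1 library gave 5 to 6. In the counts of genes that follow, the lowest value without 1 library was without STZ-HFHC 1 and the highest without ND. The 563 genes higher became 15 with no replicate block and 257 to 1169 without 1 library, and the 509 lower became 6 and 190 to 1065. The log2 difference of Wnt2 was -0.10 to 0.41 without 1 library, the lowest without STZ-HFHC 1, and that of Rspo3 was -0.14 with cluster 13, both past no threshold. In endothelial-like nuclei the 2 members higher became 1 in DESeq2, 1 with a score by share of UMIs, 0 with no replicate block (for Rspo3 unadjusted p = 0.0274, adjusted p = 1.0 in edgeR), and 1 to 3 without 1 library. The 39 genes higher became 3 in DESeq2, 19 with 2 equal parts in place of 3, 0 with no replicate block and 8 to 38 without 1 library. The 19 lower became 5 in DESeq2, 6 with the UMI share score, 7 with 2 parts, 0 with no replicate block and 6 to 32 without 1 library.

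By the rule of size, the genes called rose with no filter from 2135 to 4660 in hepatocyte-like, from 2454 to 5952 in endothelial-like and from 2315 to 5247 in stellate-like nuclei; per own marker UMIs they were 7829 in endothelial-like and 9191 in stellate-like nuclei, and members called went from 3 to 8 and from 1 to 6. From 1 STZ-HFHC library alone, 2672 to 3883, 2942 to 3660 and 2798 to 3643 genes and 1, 3 to 5 and 2 members were called, the cause being the single library of the rule. With cluster 13, members called in hepatocyte-like nuclei were 0 and the mean log2 ratio of Glul was -0.065. At resolution 0.5, 0 members were called in stellate-like nuclei, and no endothelial-like class was found, so it has no value there; the cause was not tested. The class with the highest mean level was the same for 7 to 10 of the 10 members under the alternatives run. No paired analysis was possible between STZ-HFHC and ND because they share 1 replicate number and come from different mice. Depth limits Wnt9b most, with 109 UMIs in all.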
